A study of Mus musculus with 6 samples.

Results

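The genes described here are those of the homeobox transcription factor class and a few genes named with them, 56 of the 12163 genes in the deposited table of mouse fat before and after grafting. They were chosen by annotation and name: 52 rows carry Homeobox in the table's transcription factor family column, and 4 more entered by a name pattern of Hox, En1, Irx, sine oculis, Prrx, Meis, Pbx, Tshz, Lhx, Pitx, Msx and Dlx genes. Those 4 are Tshz2 and Tshz3, which the table files under zinc finger factors, Pbxip1, which encodes a PBX-binding protein, and Hoxb5os, an antisense RNA of the HoxB cluster. A pair of ceramide synthase genes, Cers4 and Cers6, entered because their proteins carry a homeobox-like domain. Of the 56, 52 passed the filter on low values (at least 10 in at least 3 libraries), and 4, among them Alx1, Barx2 and Nkx6-1, did not. Dbx2, Six4, Gbx2 and Phox2a reached 10 only in the grafts, and Gsc and Hoxb5os only before grafting. These genes entered the test only through the group in which they were high. They are counted among the called genes, but their calls are not separate support for a change.

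Total RNA of fat tissue from wild-type C57BL/6 mice was sequenced from 3 samples taken before grafting and 3 taken at day 7 after grafting, which the submitters describe as biological replicates. The labels do not give the fat depot, the recipient site, the age or sex of the mice, or whether a sample is 1 animal or a pool. All values are normalized read counts, that is, gene reads divided by 1 factor per library, and are listed in the order of replicates 1, 2 and 3. The labels do not say whether replicates of the same number in the 2 groups are a pair, and the main fit did not pair them. Log2 fold changes are graft over before, on the log2(value + 1) scale, with the standard error of the fit, and a gene was called at a two-sided limma p under 0.05 after Benjamini-Hochberg adjustment over all 55450 annotated genes.

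The homeobox encodes the homeodomain, a helical DNA-binding fold that recognizes short AT-rich sites. The Hox genes lie in 4 clusters and record position along the body axis in the embryo, and fibroblasts, preadipocytes and other mesenchymal cells keep a depot-specific Hox pattern in the adult. The TALE proteins (Meis, Pbx, Pknox, Irx, Tgif) include the partners with which Hox proteins bind DNA, and the paired-type, engrailed, sine oculis and other families mark regions or lineages of their own.

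The Hox genes were lower in the grafts as a group, whereas the other homeobox genes went both ways. Of the 13 protein-coding Hox genes in the table, 12 fell and none rose; their median log2 fold change was -1.76. Prrx1 and Prrx2, which mark limb and body-wall mesenchyme, the dermal lineage gene En1, the Iroquois gene Irx1, Tgif1, Six4 and Dbx2 rose. The vascular and mesodermal gene Meox2, the organizer gene Gsc and the zinc finger homeobox genes Zfhx2, Zhx3 and Zfhx4 fell. In all, 19 of the 52 tested genes rose, 23 fell and 10 were not called, and the median was -0.48. Among all 10854 tested genes 41.3% were called higher, 39.2% lower and 80.4% either way, and the median was 0.28. Without the filter on low values the median was -0.45 for the homeobox genes and -0.30 for all genes. The median over the 39 tested genes other than the protein-coding Hox genes was 0.76, with 19 called higher and 11 lower.

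The deposited table holds few genes near no change. Only 51 of the 10854 tested genes, and none of the homeobox genes, had a log2 fold change within 0.25 of 0. A homeobox gene that is not in the table is therefore not taken as unchanged or as silent. The reads in listed genes came to 13027776 to 15924559 per library. In bulk tissue, fewer cells of a type and less RNA per cell cannot be told apart.

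**Figure D1:**
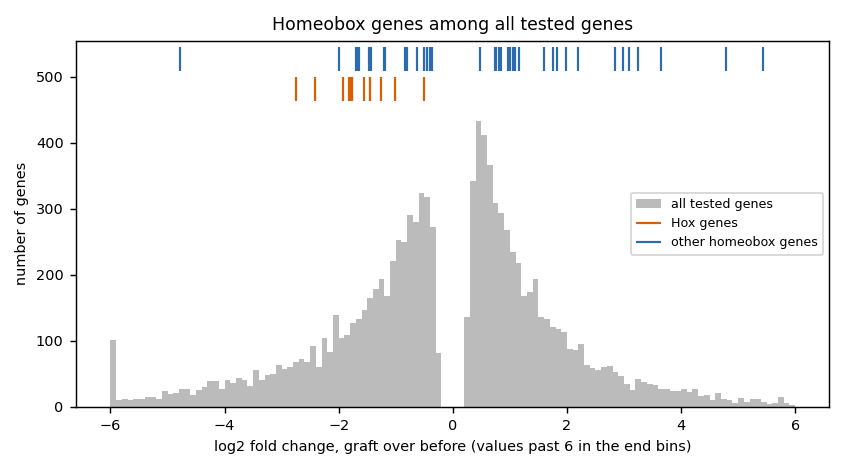
Histogram of the log2 fold change (graft over before, horizontal axis) of all 10854 tested genes, with 1 tick for each tested homeobox gene above it, Hox genes in orange and the other 39 in blue. The gap around 0 is in the deposited table, the Hox ticks all lie below 0, and the other ticks lie on both sides.

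Upstream sequence is shown for 5 genes: the pair of neighbouring HoxA genes with the largest falls in that cluster, and 3 genes that rose. RefSeq (GRCm38.p6) gave a start site for 35 of the 56 genes, and the 250 bases before each start were searched on both strands for the homeodomain site TAATTA, the Meis, Pknox and Tgif core TGACAG, the Pbx-Hox site TGATTNAT and the TATA box TATAAA. The stretches are written 5′ to 3′ on the gene's strand, with a match in capitals.
Hoxa9 (chr6:52227371-52227620, minus strand): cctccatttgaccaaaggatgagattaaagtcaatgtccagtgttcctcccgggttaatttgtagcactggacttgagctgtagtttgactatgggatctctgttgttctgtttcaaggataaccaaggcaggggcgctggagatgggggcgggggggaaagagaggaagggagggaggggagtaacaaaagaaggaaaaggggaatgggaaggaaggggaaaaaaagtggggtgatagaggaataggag
Hoxa10 (chr6:52240855-52241104, minus strand): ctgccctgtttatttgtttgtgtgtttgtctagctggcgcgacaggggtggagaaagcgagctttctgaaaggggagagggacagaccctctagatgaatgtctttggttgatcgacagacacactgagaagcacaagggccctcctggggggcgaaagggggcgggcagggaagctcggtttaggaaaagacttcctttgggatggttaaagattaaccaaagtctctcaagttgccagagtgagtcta
Prrx1 (chr1:163313651-163313900, minus strand): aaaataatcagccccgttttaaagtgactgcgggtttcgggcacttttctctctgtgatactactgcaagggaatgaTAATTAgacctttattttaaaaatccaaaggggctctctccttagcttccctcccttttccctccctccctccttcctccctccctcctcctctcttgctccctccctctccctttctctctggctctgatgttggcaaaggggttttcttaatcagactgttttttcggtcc
En1 (chr1:120602237-120602486, plus strand): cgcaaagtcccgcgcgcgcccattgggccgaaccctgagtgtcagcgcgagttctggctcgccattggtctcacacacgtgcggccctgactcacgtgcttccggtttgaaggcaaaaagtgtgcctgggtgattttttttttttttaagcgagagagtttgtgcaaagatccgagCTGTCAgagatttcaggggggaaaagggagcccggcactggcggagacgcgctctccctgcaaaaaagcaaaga
Dbx2 (chr15:95654772-95655021, minus strand): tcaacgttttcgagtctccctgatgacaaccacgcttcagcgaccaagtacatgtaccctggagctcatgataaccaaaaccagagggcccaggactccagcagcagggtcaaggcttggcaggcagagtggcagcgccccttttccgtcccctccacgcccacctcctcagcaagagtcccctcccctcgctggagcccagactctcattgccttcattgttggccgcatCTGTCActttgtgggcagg
TAATTA was found before the Prrx1 start alone among the 35 genes, and before 4.90% of the 27025 starts in the RefSeq table and 2.44% of the 7787 starts of tested genes. TGACAG was found before 4 of them, Cers6, Dbx2, En1 and Six5, and before 16.0% of all starts and 13.8% of those of tested genes; in the En1 and Dbx2 stretches it lies on the other strand and reads ctgtca. TGATTNAT was found before none of the 35 and before 2.99% of all starts and 1.46% of those of tested genes. TATAAA was found before Gsc, Hoxb8, Meis2, Meox2 and Shox2, which is 14.3% of the 35, and before 13.0% of all starts and 7.09% of those of tested genes. The Hoxa9 and Hoxa10 stretches hold none of the 4 motifs, which says only that these letters are not in the 250 bases. Six4, Gbx2, Tgif1, Phox2a and Prrx2, which rose, also had none. Of 14 starts of genes called higher, 1 had TAATTA and 3 had TGACAG, and of 11 of genes called lower, 2 had TATAAA. The median GC content was 59.6% for these 35 homeobox genes, 59.2% for the 7787 starts of tested genes and 52.0% for all starts.

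HoxA. The table lists 4 of the 11 annotated protein-coding HoxA genes, Hoxa4, Hoxa7, Hoxa9 and Hoxa10, which lie on chromosome 6 between 52189671 and 52240854 (GRCm38). Hoxa9 (chr6:52223100-52231089), a posterior gene known for its role in limb patterning and in blood progenitors, had normalized counts of 231, 395 and 323 before grafting and 80.3, 40.7 and 27.7 in the grafts. The log2 fold change was -2.75 ± 0.39 (SE), adjusted p = 0.00137. Each graft was below each sample before grafting, and graft replicate 1 was the highest of the 3. Its neighbour Hoxa10 (chr6:52231197-52240854), which patterns the lumbar region and the uterus, had 125, 174 and 127 before grafting and 59.3, 25.2 and 31.7 in the grafts. The change was -1.93 ± 0.34 (SE), adjusted p = 0.00439, again with graft replicate 1 highest and no overlap of the groups. For Hoxa7 (chr6:52214491-52221854), a thoracic-level gene, the counts were 269, 318 and 264 before grafting and 101, 74.7 and 70.2 in the grafts, a change of -1.79 ± 0.20 (SE), adjusted p = 0.000343, and the grafts lay closer together than for Hoxa9. Hoxa4, the most anterior of the 4, had 43.4, 53.7 and 57.1 before grafting and 29.1, 15.5 and 12.9 in the grafts. Its change was -1.45 ± 0.36 (SE), adjusted p = 0.0262, and leaving out any library other than graft replicate 1 took the adjusted p above 0.05 (0.0596 to 0.116). The Hoxa4 model overlaps Hoxa3 on its own strand and the antisense RNA Hoxaas3 on the other, so their reads may not be told apart.

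HoxB and HoxD. The 3 listed HoxB genes of 10 lie on chromosome 11 between 96281905 and 96306121. Hoxb5 (chr11:96303336-96306121), which acts in the lung and enteric nervous system, had 77.9, 92.2 and 87.5 before grafting and 28.1, 31.0 and 16.8 in the grafts, a change of -1.76 ± 0.29 (SE), adjusted p = 0.00338. Hoxb6 (chr11:96292476-96301569), a gene of lateral plate mesoderm, had 191, 240.1 and 181 before grafting and 71.3, 70.8 and 63.3 in the grafts, a change of -1.55 ± 0.19 (SE), adjusted p = 0.000591. Both sets of grafts were below every sample before grafting, and those of Hoxb6 were close together. Hoxb8, which lies next to them and is known for its role in myeloid progenitors, had 109, 147 and 100.3 before grafting and 82.4, 79.5 and 85.1 in the grafts; its groups also did not overlap, but the change of -0.51 was not called (adjusted p = 0.217, and 0.00316 with ribosomal protein genes held at no change). The antisense RNA Hoxb5os had 27.6, 24.3 and 10.8 before grafting and 5.02, 5.82 and 5.94 in the grafts, with a change of -1.64 ± 0.44 (SE), adjusted p = 0.0388; its adjusted p was 0.0818 to 0.179 when any 1 library other than before replicate 3 was left out. It overlaps Hoxb5 and Hoxb6 on the other strand, and the strand use of the counting is not given in the sources used here. From HoxD, 1 of 9 genes is listed: Hoxd9 (chr2:74697727-74700208), a limb and lumbar gene, had 130.2, 149.9 and 119 before grafting and 56.2, 70.8 and 70.2 in the grafts, a change of -1.01 ± 0.20 (SE), adjusted p = 0.00952, with no overlap of the groups.

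HoxC. The HoxC cluster had the most listed genes, 5 of 9, on chromosome 15 between 102966796 and 103017429. Hoxc8 (chr15:102990607-102994111), a thoracic-level gene linked to white as against brown fat, had 719, 939 and 832 before grafting and 188, 247 and 299 in the grafts. Its change was -1.78 ± 0.19 (SE), adjusted p = 0.000261. All 3 grafts were far below the 3 samples before grafting. Hoxc6 had 467, 582 and 482 before grafting and 122, 163 and 316 in the grafts, a change of -1.46 ± 0.32 (SE), adjusted p = 0.0141; graft replicate 3 stood above the other grafts but below every sample before grafting, and the adjusted p was 0.0803 without before replicate 2 and 0.0559 without before replicate 3. Hoxc9, a gene of the thoracic and lumbar levels, had 185, 235 and 213 before grafting and 70.3, 149 and 62.3 in the grafts, a change of -1.27 ± 0.32 (SE), adjusted p = 0.031, with graft replicate 2 the highest graft. Leaving out any library other than graft replicate 2 took its adjusted p above 0.05 (0.0705 to 0.116). Hoxc10 (chr15:102966796-102971893), a posterior gene known to differ between fat depots, had 226, 285 and 248 before grafting and 91.4, 44.6 and 23.7 in the grafts. The change was -2.42 ± 0.43 (SE), adjusted p = 0.00491, and the graft mean was 53.2 with graft replicate 1 and 34.2 without it. Hoxc5 had 151, 180.3 and 170.2 before grafting and 42.2, 39.8 and 59.4 in the grafts, a change of -1.82 ± 0.22 (SE), adjusted p = 0.000639. The annotated Hoxc5 model runs across Hoxc6, Hoxc8, Hoxc9 and Hoxc10 on the same strand, so its reads and theirs may not be told apart.

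Genes of all 4 clusters were lower in the grafts. The summed normalized count of the 13 genes was 2926, 3792 and 3204 before grafting and 1021, 1052 and 1138 in the grafts. HoxC genes made up 59.8%, 58.6% and 60.7% of that sum before grafting and 50.2%, 61.2% and 66.8% in the grafts, ranges that overlap. HoxA genes made up 22.9%, 24.8% and 24.0% before grafting and 26.5%, 14.8% and 12.5% in the grafts, so that graft replicate 1 was above and the other grafts below the starting samples. Hoxb8, the gene that was not called, had a share of 3.74%, 3.87% and 3.13% before grafting and 8.06%, 7.56% and 7.48% in the grafts, with no overlap. These shares are descriptions of sums dominated by Hoxc8, which alone made up 24.6% to 26.0% before grafting and 18.4% to 26.3% in the grafts. Along the paralogue numbers, the changes had no single order. Paralogue group 9 alone held -2.75 (Hoxa9), -1.27 (Hoxc9) and -1.01 (Hoxd9), and group 8 held -1.78 (Hoxc8) and -0.51 (Hoxb8). Per kilobase of gene model, which allows genes to be compared, the highest Hox level before grafting was that of Hoxc8 with 293 and the lowest that of Hoxb5 with 30.8.

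**Figure D2:**
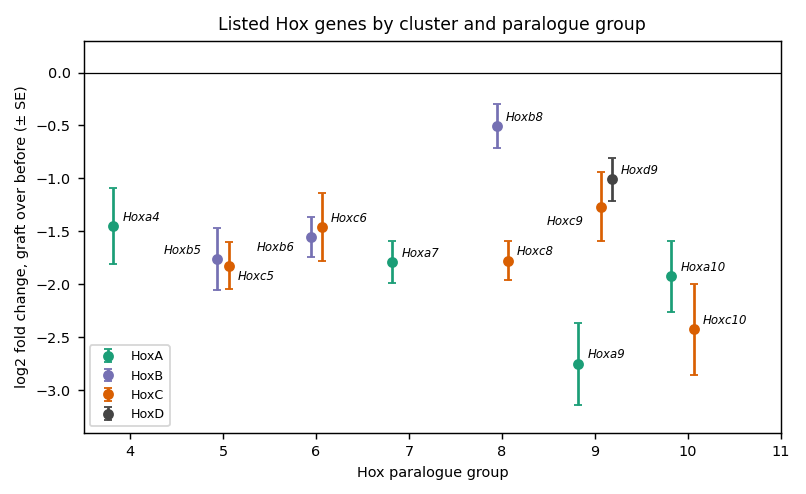
Log2 fold change (graft over before, vertical axis, error bars of 1 SE) of the 13 listed protein-coding Hox genes against their paralogue group (horizontal axis), coloured by cluster. Every gene lies below 0; Hoxa9 (-2.75) is lowest, Hoxb8 (-0.51) is highest, and the paralogue groups overlap.

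The direction of the Hox genes did not hang on the scaling of the libraries, since all 13 had a negative log2 fold change under every setting that tested all 13 and all 12 tested under the filter at 50 did too. Between 9 and 13 of them were called lower across those settings. The adipocyte markers fell in the same libraries: all 12 listed adipocyte markers were called lower, and their summed counts were 495460, 669366 and 499132 before grafting and 37536, 16082 and 12176 in the grafts, with none at 0 in any library. The B, T and plasma cell markers (14 of 14 lower), Schwann cell markers (8 of 8 lower), endothelial markers (6 of 9 lower) and mural markers (6 of 7 lower) also fell, while macrophage (13 of 13) and neutrophil markers (8 of 8) rose. Over all tested genes 41.3% were called higher and 39.2% lower. Of 17 mesenchymal and fibroblast markers, 11 rose, 3 fell and 3 were not called, with a median change of 1.03 on the log2 scale. Those that fell were Dpt (-2.13), Dpp4 (-1.53, limma adjusted p = 0.0522 without before replicate 1) and Cd55 (-1.40). The part of these cell types in the Hox result was not tested.

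Ratios of Hoxc8 and Prrx1 to mesenchymal genes within a library depended on which mesenchymal gene was the denominator. The ratio of Hoxc8 to Pdgfra, the receptor that marks adipose progenitors and fibroblasts, was 0.367, 0.530 and 0.556 before grafting and 0.0453, 0.0439 and 0.0425 in the grafts. Prrx1 to Pdgfra was 0.786, 0.706 and 0.831 before grafting and 0.968, 0.848 and 0.677 in the grafts, so these groups overlapped. Prrx1 to Col1a1, the collagen gene, was 0.0626, 0.0431 and 0.0620 before grafting and 0.0143, 0.0114 and 0.0129 in the grafts, with no overlap. Hoxc8 to Dpt, a matrix gene of universal fibroblasts that itself fell (-2.13 ± 0.13 (SE), adjusted p = 1.78e-05), was 0.0742, 0.0934 and 0.0967 before grafting and 0.0827, 0.101 and 0.167 in the grafts, which also overlapped. The ratio of Prrx1 to the summed Hox genes was 0.526, 0.330 and 0.388 before grafting and 3.93, 4.54 and 4.18 in the grafts. A ratio shows unequal change and not that either gene stayed constant, and these pairs were chosen with the values known, so no test is given.

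**Figure D3:**
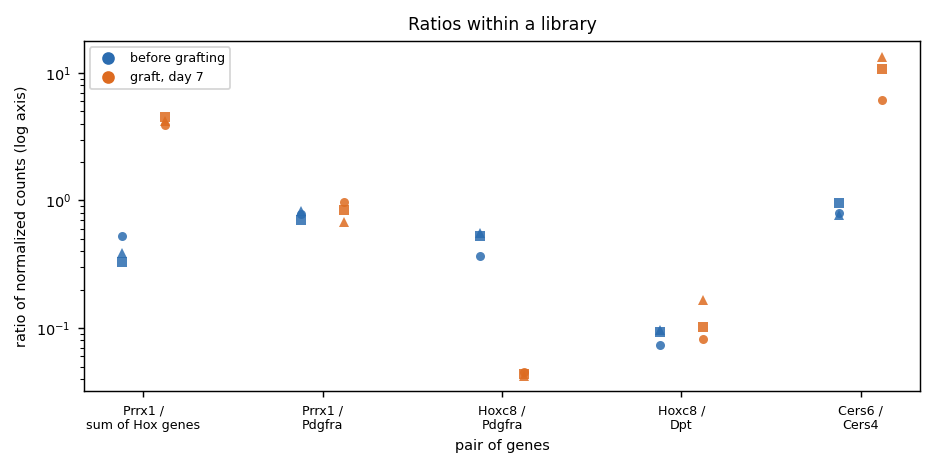
Ratio of the normalized counts of 2 genes in the same library (logarithmic vertical axis) for 5 pairs, with 3 libraries before grafting in blue and 3 grafts in orange. Prrx1 over Pdgfra and Hoxc8 over Dpt overlap between the groups, and the other 3 pairs do not.

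TALE genes. Of the 10 TALE genes 6 rose, 4 were not called and none fell, against 41.3% called higher and 39.2% lower over all tested genes. Pbx3, Pknox2, Irx1 and Irx5 were not called with ribosomal protein genes held at no change. Tgif1 (chr17:70844205-70853546), a repressor that limits TGF-beta and retinoid signalling, had 268, 173 and 227 before grafting and 1593, 2453 and 2326 in the grafts. Its log2 fold change of 3.24 ± 0.21 (SE), adjusted p = 2.19e-05 came with no overlap. Pbx3, a cofactor that binds DNA with Hox proteins, had 119, 126 and 111 before grafting and 244, 198 and 204 in the grafts, a change of 0.85 ± 0.16 (SE), adjusted p = 0.00781. It was higher in every graft, but with ribosomal protein genes held at no change its log2 fold change was 0.11. Pknox2, a further Meis-related cofactor, had 85.8, 70.9 and 84.6 before grafting and 117, 217 and 199.8 in the grafts, a change of 1.09 ± 0.26 (SE), adjusted p = 0.0233; the adjusted p was 0.0608 to 0.0908 without any 1 library other than graft replicate 1, and the change was 0.35 with ribosomal protein genes held at no change.

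No Meis gene was called with the deposited scaling and the adjustment over all annotated genes. Meis1, which pairs with posterior Hox proteins, had 181 ± 30.4 before grafting and 126 ± 16.1 in the grafts (SD, n = 3), a log2 fold change of -0.51 (limma adjusted p = 0.169). Meis2 had 261 ± 23.5 before grafting and 191 ± 6.15 in the grafts, a change of -0.44 (adjusted p = 0.0781). Meis2 was called lower with equal listed totals (adjusted p = 0.0264), median ratios (0.0284), equal upper quartiles (0.0141) and ribosomal protein genes held at no change (0.000688), and Meis1 under the last 2 (0.0453 and 0.00199). Meis3 had 131 ± 27.3 before grafting and 180.5 ± 9.89 in the grafts, a change of 0.48 (adjusted p = 0.215), which turned to -0.26 with ribosomal protein genes held at no change. The grafts lay below the starting samples for Meis1 and Meis2 and above them for Meis3 in every library. Non-overlap of the groups is common in this table: it held for 97.6% of tested genes, with the grafts above in 49.6% and below in 48%, and among the 52 tested homeobox genes the grafts were above in 21 and below in 29.

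The Iroquois genes, which subdivide embryonic fields and are linked to fat cell biology, differed widely between libraries in both groups. The ratio of the highest to the lowest graft was 2.26 for Irx1, 4.04 for Irx2 and 3.73 for Irx5. Between the samples before grafting that ratio was 2.39, 2.78 and 2.21. Irx1 had 79.9, 57.7 and 33.4 before grafting and 132, 256 and 297 in the grafts, a change of 1.98 ± 0.40 (SE), adjusted p = 0.00933, which was 1.25 (adjusted p = 0.0821) with ribosomal protein genes held at no change. Irx5 had 8.87, 15.2 and 6.89 before grafting and 23.1, 57.2 and 86.1 in the grafts, a change of 2.20 ± 0.52 (SE), adjusted p = 0.0216; without before replicate 1, before replicate 3, graft replicate 2 or graft replicate 3 the adjusted p was 0.0775, 0.0967, 0.0728 and 0.0753, and with ribosomal protein genes held at no change it was 0.138. Irx2 had 145, 88.1 and 52.1 before grafting and 75.3, 218 and 305 in the grafts, and graft replicate 1 fell within the starting samples. Irx2 was not called (change 0.96, adjusted p = 0.598), and was called without graft replicate 1 (change 1.55, adjusted p = 0.0373). All 3 Iroquois genes were lowest in graft replicate 1 and highest in graft replicate 3 among the grafts. Among the samples before grafting, all 3 were lowest in replicate 3.

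Paired-type genes. Prrx1 (chr1:163245119-163313710), which marks mesenchymal progenitors of limb, skin and fat, had 1540.2, 1250.1 and 1243 before grafting and 4016, 4775 and 4759 in the grafts. Its log2 fold change was 1.75 ± 0.12 (SE), adjusted p = 2.89e-05, with the 3 grafts close together. Prrx2 (chr2:30834972-30881251), its relative in fetal and wounded skin, had 36.5, 20.3 and 15.7 before grafting and 125, 223 and 231 in the grafts, a change of 2.98 ± 0.37 (SE), adjusted p = 0.000704. Gsc, named goosecoid and known from the embryonic organizer and craniofacial mesenchyme, had 41.4, 76.0 and 31.5 before grafting and 4.02, 0 and 0 in the grafts. Only 4 reads were counted in the grafts, all in replicate 1, and the change was -4.79 ± 0.70 (SE), adjusted p = 0.0017. Hopx, a small homeodomain protein that does not bind DNA, had 88.7, 74.0 and 79.7 before grafting and 124, 184 and 124 in the grafts, a change of 0.80 ± 0.22 (SE), adjusted p = 0.0439; without any 1 library other than graft replicate 1 the adjusted p was 0.0595 to 0.167, and with equal listed totals, median ratios, equal upper quartiles and ribosomal protein genes held at no change it was 0.102, 0.0774, 0.135 and 1 (change 0.06 in the last). Phox2a, an autonomic neuron gene, had 1.97, 0 and 1.97 before grafting and 22.1, 17.5 and 11.9 in the grafts, a change of 3.09 ± 0.57 (SE), adjusted p = 0.00594 from near absence of reads. Shox2, a limb and heart pacemaker gene, had 231, 344 and 255 before grafting and 121, 147 and 213 in the grafts and was not called (change -0.80, adjusted p = 0.0693), although its groups did not overlap; without graft replicate 3 it was called (change -1.03, adjusted p = 0.0223), as it was with equal listed totals (0.0256), median ratios (0.0355), equal upper quartiles (0.0286) and ribosomal protein genes held at no change (0.00277). Alx1, a craniofacial mesenchyme gene under the filter, had no read before grafting and 5.02, 3.88 and 1.98 in the grafts.

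Other Antennapedia- and NK-type genes. En1 (chr1:120602418-120607992), engrailed 1, which marks the dorsal dermal fibroblast lineage that makes scar, had 51.3, 46.6 and 44.3 before grafting and 168, 463 and 527 in the grafts. The log2 fold change was 2.84 ± 0.40 (SE), adjusted p = 0.00147, and graft replicate 1 stood well below the other grafts but above every sample before grafting. Dbx2 (chr15:95623563-95655960), known from spinal cord interneurons, had 1 read in each sample before grafting and 50.2, 91.2 and 136 in the grafts. Its change was 5.44 ± 0.44 (SE), adjusted p = 6.10e-05, and the ratio of the summed counts was 93.1 with a 95% interval of 31.5 to 454 that covers counting error only. Dbx2 entered the test only through its graft values. Gbx2, a gene of the midbrain-hindbrain boundary, had 0, 4.05 and 3.93 before grafting and 54.2, 35.9 and 22.8 in the grafts, a change of 3.64 ± 0.69 (SE), adjusted p = 0.00699. Hlx, which is needed in visceral mesenchyme and acts in T cells, had 242, 254 and 261 before grafting and 567, 462 and 544 in the grafts, a change of 1.05 ± 0.13 (SE), adjusted p = 0.000576 that was 0.30 (adjusted p = 0.545) with ribosomal protein genes held at no change. Meox2 (chr12:37108540-37179534), a gene of mesoderm, muscle precursors and quiescent vascular cells, had 605, 645 and 745 before grafting and 196, 171 and 264 in the grafts. It fell by every library, with a change of -1.68 ± 0.18 (SE), adjusted p = 0.00029. Msx1, a target of BMP signals in limb and craniofacial mesenchyme, had 87.8, 108 and 94.4 before grafting and 57.2, 31.0 and 40.6 in the grafts, a change of -1.19 ± 0.27 (SE), adjusted p = 0.018; without before replicate 2, before replicate 3, graft replicate 2 or graft replicate 3 the adjusted p was 0.0754, 0.0713, 0.0542 and 0.0515. Barx2 had no read before grafting and 1.00, 13.6 and 18.8 in the grafts, at least 3.73-fold higher against a floor of 3 reads over the group, or 2.44-fold without graft replicate 3. Nkx6-1, a pancreatic and neural gene, went the other way, with 17 reads in all before grafting and 1 in the grafts, which puts the ratio at 17.1 (95% counting interval 2.68 to 715).

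LIM-type and sine oculis genes. Lhx8, a LIM-homeobox gene used as a label of brown fat, had 39.4, 38.5 and 32.5 before grafting and 57.2, 66.9 and 149 in the grafts and was not called (change 1.16, adjusted p = 0.0814); it was called without graft replicate 1 (change 1.42, adjusted p = 0.037). Six4 (chr12:73099609-73113456), which acts in muscle and ganglion development, had 1.97, 8.10 and 4.92 before grafting and 97.4, 163 and 209 in the grafts, a change of 4.79 ± 0.48 (SE), adjusted p = 0.000201. Its 3 grafts were all far above the 3 samples before grafting, which held few reads. Six5 had 297 ± 41.6 before grafting and 224 ± 31.9 in the grafts, with overlapping groups and no call (change -0.40, adjusted p = 0.236, and 0.00145 with ribosomal protein genes held at no change).

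Zinc finger and divergent homeobox genes. Of the 7 genes of the Zfhx, Zhx and Tshz families 5 fell, 1 rose and 1 was not called, against 39.2% lower and 41.3% higher over all tested genes. Zhx3, a repressor with zinc fingers and homeoboxes, had 1196, 1298 and 1061 before grafting and 454, 403 and 429 in the grafts, a change of -1.46 ± 0.11 (SE), adjusted p = 4.85e-05. Zhx1 had 1823, 1705 and 2025 before grafting and 1002, 1112 and 991 in the grafts, a change of -0.84 ± 0.10 (SE), adjusted p = 0.000617. Zfhx2 had 246, 184 and 202 before grafting and 41.2, 54.3 and 62.3 in the grafts, a change of -1.99 ± 0.23 (SE), adjusted p = 0.0004; Zfhx4 had 806, 868 and 726 before grafting and 253, 354 and 465 in the grafts, a change of -1.20 ± 0.21 (SE), adjusted p = 0.00456. These 4 genes were below every starting sample in every graft. Zfhx3 was not called (change -0.46, adjusted p = 0.147), but was called lower with equal upper quartiles (0.0281) and with ribosomal protein genes held at no change (0.000188). The teashirt genes split: Tshz2 had 133, 156 and 150.5 before grafting and 53.2, 61.1 and 47.5 in the grafts, a change of -1.43 ± 0.20 (SE), adjusted p = 0.00127, and Tshz3 had 149, 128 and 127 before grafting and 253, 291 and 270.1 in the grafts, a change of 1.01 ± 0.15 (SE), adjusted p = 0.002 that was 0.27 with ribosomal protein genes held at no change. Hmbox1, a telomere-binding protein, had 1007, 985 and 1014 before grafting and 798, 765 and 767 in the grafts, the smallest called change (-0.37 ± 0.09 (SE), adjusted p = 0.0207). Its call was lost without before replicate 1, before replicate 3, graft replicate 2 or graft replicate 3 (adjusted p = 0.0676, 0.0780, 0.0914 and 0.0713). Hdx, a highly divergent homeobox gene, had 9.86, 13.2 and 16.7 before grafting and 49.2, 29.1 and 49.5 in the grafts, a change of 1.60 ± 0.36 (SE), adjusted p = 0.0155, and an adjusted p of 0.0601 without before replicate 1 and 0.0595 without graft replicate 3; with ribosomal protein genes held at no change the change was 0.89 (adjusted p = 0.317).

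The 3 genes whose proteins are not homeodomain transcription factors also moved. The ceramide synthases, enzymes that differ in the acyl chain they attach, went opposite ways. Cers6 had 597, 593 and 524 before grafting and 1703, 2139 and 2239 in the grafts, a change of 1.82 ± 0.13 (SE), adjusted p = 2.90e-05. Cers4 had 748, 619 and 686 before grafting and 276, 199.8 and 167 in the grafts, a change of -1.70 ± 0.19 (SE), adjusted p = 0.000381. The ratio of Cers6 to Cers4 within a library was 0.797, 0.957 and 0.765 before grafting and 6.17, 10.7 and 13.4 in the grafts. Pbxip1, which holds Pbx proteins away from DNA, had 1595, 1509 and 1404 before grafting and 2151, 2582 and 2974 in the grafts, a change of 0.76 ± 0.13 (SE), adjusted p = 0.00381 that was 0.02 with ribosomal protein genes held at no change. Per kilobase, Pbxip1 was the most abundant of the 56 genes in both groups, at 322 before grafting and 550 in the grafts (means of 3 libraries), and Prrx1 was second in the grafts, at 408.

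**Figure D4:**
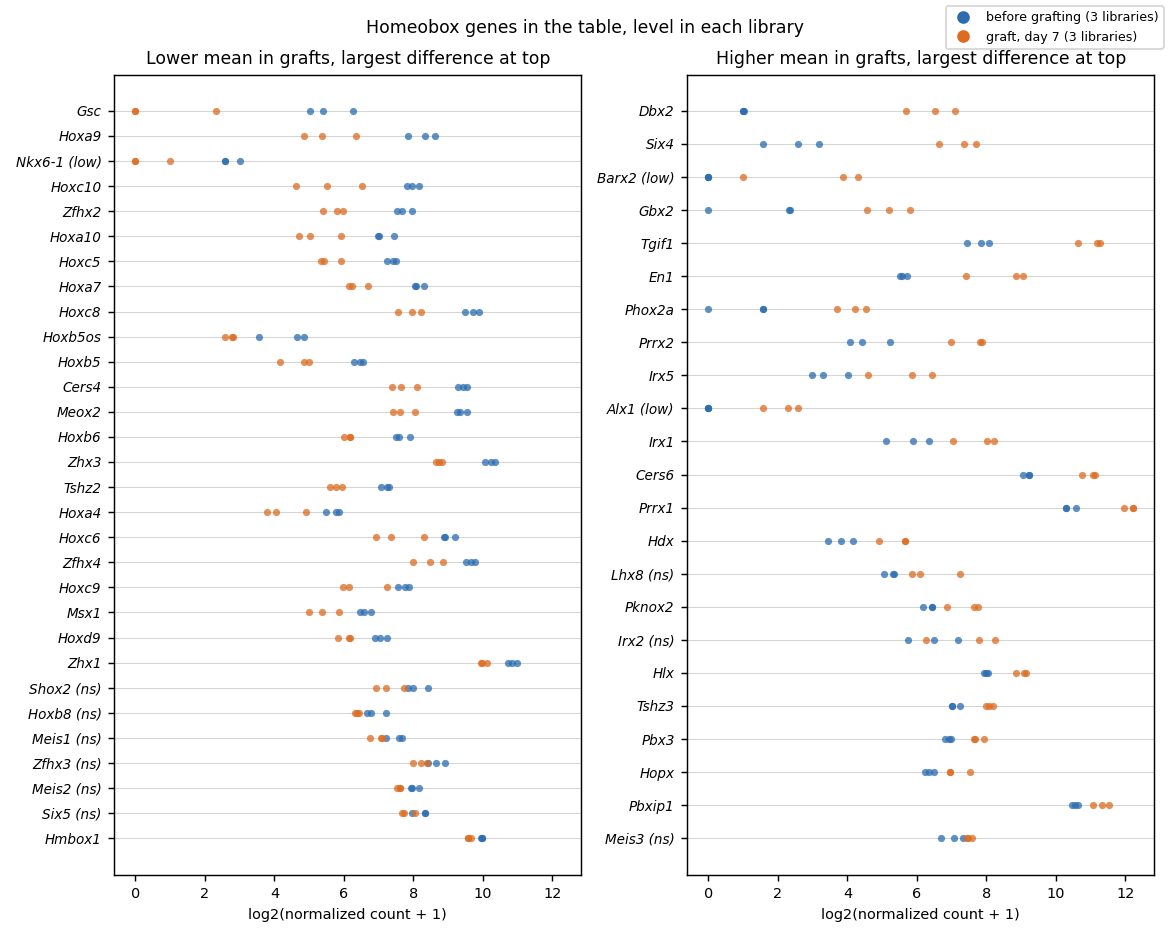
Level of 53 of the 56 homeobox genes in each library, as log2(normalized count + 1) on the horizontal axis, with 3 libraries before grafting in blue and 3 grafts in orange. The left panel holds genes with a lower graft mean and the right panel those with a higher one, ns marks tested genes that were not called and low marks 3 genes under the filter. The Hox genes are all in the left panel.

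The grafts differed among themselves more than the starting samples did for many of these genes. Among the 43 homeobox genes with a mean of at least 20 in both groups, 9 varied more than 2-fold between grafts and 3 between the samples before grafting. Over all tested genes at that level the counts were 725 and 257 of 8692. The median ratio of the highest to the lowest graft was 1.49 for the homeobox genes and 1.23 for all tested genes. Of the 12 Hox genes at that level 5 varied more than 2-fold between grafts (Hoxa9, Hoxa10, Hoxc6, Hoxc9 and Hoxc10), and none between the starting samples. The other 4 were Irx1, Irx2, Lhx8 and En1. The 3 that varied more than 2-fold between the starting samples were Irx1, Irx2 and Prrx2. Irx1 and Irx2 thus varied in both groups, and Irx1 slightly more before grafting (2.39) than between grafts (2.26). The numbers of genes given here are counts over genes, which are not replicates, and carry no test. The genes and groups compared were not matched for read number. Hoxa9, for example, had 952 reads before grafting and 150 in the grafts.

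The homeobox genes that rose were often lowest in graft replicate 1. Of the 18 called higher with a graft mean of at least 20, 14 (77.8%) had their lowest graft value there, against 38.3% of 4397 such genes over the table. Among those 18, 9 had their highest value in graft replicate 3, En1 and Six4 among them (50%, against 27.1% over the table). Of the 20 called lower at that level, 9 (45%) had their highest graft value in graft replicate 1, against 46.7% of 3115 such genes over the table. Graft replicate 1 also had the highest summed adipocyte markers of the grafts (37536 against 16082 and 12176). Its summed mesenchymal markers were the lowest (891074 against 1436710 and 1292500). Most of that sum is Col1a1, Col3a1 and Col1a2 (280633, 292691 and 212114 in graft replicate 1). Dpt, Dpp4, Cd55, Cd34 and Fbn1 were lowest in graft replicate 3, Col6a1 in graft replicate 2, and the rest in graft replicate 1. The part of these markers in this pattern was not tested.

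**Figure D5:**
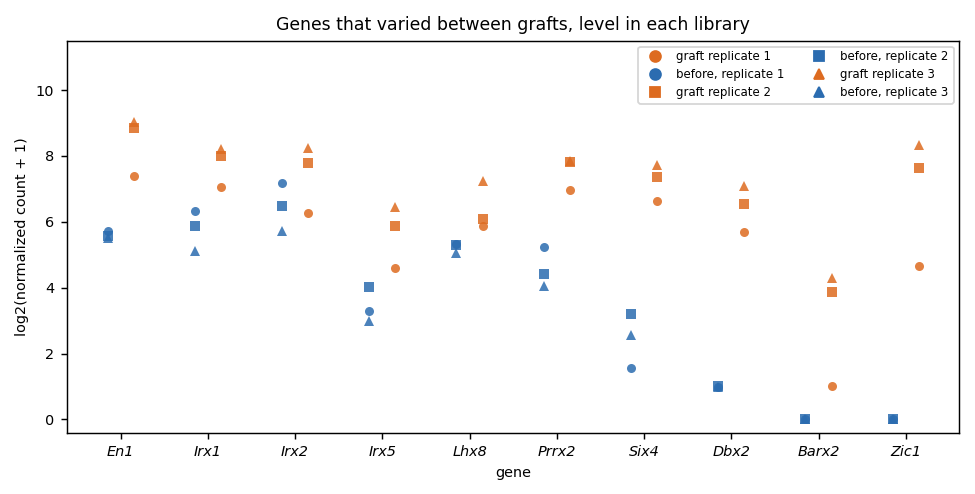
Level of 9 homeobox genes outside the Hox clusters and of Zic1 in each library, genes chosen after their values were seen to be lower in graft replicate 1 than in the other grafts, as log2(normalized count + 1) on the vertical axis, with circles, squares and triangles for replicates 1, 2 and 3 and blue and orange for before and graft. Graft replicate 1 (orange circle) is the lowest graft for all 10, which follows from that choice. Among protein-coding Hox genes, not drawn, it was the highest for Hoxa4, Hoxa7, Hoxa9, Hoxa10, Hoxb6 and Hoxc10 and the lowest for Hoxc6, Hoxc8 and Hoxd9.

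Positional transcription factors without a homeobox moved both ways as well. Of 46 such genes on a list of T-box, Zic, Gli, Fox, Gata, Pax and related factors, 24 are in the table and 19 were tested: 6 rose, 8 fell, and the median log2 fold change was -0.84. Over all tested genes 41.3% rose, 39.2% fell and the median was 0.28. Zic1, a neural and brown fat associated factor, had no read before grafting and 24.1, 199.8 and 322 in the grafts, at least 61.1-fold higher, or 37.5-fold without graft replicate 3. Wt1, which marks mesothelium and visceral fat progenitors, had no read before grafting and 97.4, 63.0 and 76.2 in the grafts, at least 26.4-fold higher; it is also 1 of 8 listed mesothelial markers. Of the other 7, 4 fell, and 3 under the filter had higher graft means: Msln (3.33 ± 1.58 before grafting and 17.5 ± 9.14 in the grafts), Upk3b (0 before grafting and 24.1, 1.94 and 2.97 in the grafts) and Bnc1 (0 before grafting and 14.1, 3.88 and 6.92 in the grafts). The part of mesothelial cells in the Wt1 level was not tested. Gli3, a mediator of hedgehog signals, had 132, 134 and 95.4 before grafting and 271, 493 and 475 in the grafts, a change of 1.74 ± 0.26 (SE), adjusted p = 0.0019. Lef1, a Wnt effector found in lymphocytes and skin, had 491, 328 and 367 before grafting and 14.1, 30.1 and 6.92 in the grafts (graft mean 17.0, or 10.5 without replicate 2), a change of -4.66 ± 0.46 (SE), adjusted p = 0.000201. Tbx1 had a change of -3.94 ± 0.33 (SE), adjusted p = 7.79e-05. Tcf15, a gene of fat endothelium, had 208, 214 and 141 before grafting and 42.2, 6.79 and 12.9 in the grafts (graft mean 20.6, or 9.82 without replicate 1), a change of -3.47 ± 0.57 (SE), adjusted p = 0.00333. Tbx15, a factor of subcutaneous fat and the dorsal skin, had 392, 379 and 325 before grafting and 395, 675 and 892 in the grafts and was not called (change 0.77, adjusted p = 0.122), but was called without graft replicate 1 (change 1.09, adjusted p = 0.00241).

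Retinoic acid sets Hox expression in the embryo, and its pathway genes moved in both directions. Of 28 genes on the list 20 were tested, 9 rose and 8 fell, with a median of 0.47. The shares over all tested genes were 41.3% higher and 39.2% lower. The retinol-oxidizing alcohol dehydrogenase Adh1 fell from 2248, 2731 and 2333 to 82.4, 38.8 and 57.4 (-5.39 ± 0.25 (SE), adjusted p = 5.06e-06), the retinol carrier Rbp4 from 5276, 6276 and 6019.8 to 584, 513 and 299 (-3.70 ± 0.23 (SE), adjusted p = 1.81e-05), and the retinal dehydrogenase Aldh1a1 from 2407, 2203 and 2259 to 307, 192 and 165 (-3.41 ± 0.21 (SE), adjusted p = 1.78e-05). Rbp4 and Aldh1a1 are also made by fat cells. The cellular retinoic acid binding genes rose. Crabp1 had no read before grafting and 60.3, 282 and 541 in the grafts, at least 98.7-fold higher, or 57.4-fold without graft replicate 3. Crabp2 had 1.97, 4.05 and 0 before grafting and 47.2, 296 and 452 in the grafts, a change of 6.24 ± 0.90 (SE), adjusted p = 0.00165; its graft mean was 265 and 171 without graft replicate 3, and its mean before grafting was 2.01 and 0.986 without replicate 2. The retinol-oxidizing enzyme Dhrs9 rose as well (3.99 ± 0.28 (SE), adjusted p = 2.96e-05).

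The trithorax and Polycomb complexes keep Hox genes on or off. Of 28 such genes on the list 19 were tested, 5 rose and 8 fell, with a median of -0.36. The shares over all tested genes were 41.3% higher and 39.2% lower. The Polycomb subunit Cbx7 fell from 1609, 1157 and 1152 to 217, 187 and 198 (-2.68 ± 0.15 (SE), adjusted p = 1.18e-05). The trithorax methyltransferases Kmt2a (-1.31 ± 0.13 (SE), adjusted p = 0.000201) and Kmt2d (-1.10 ± 0.13 (SE), adjusted p = 0.000432) fell too. Kdm6b, a demethylase that removes the Polycomb mark and is induced in macrophages, rose from 923, 969 and 892 to 2825, 4042 and 3583 (1.89 ± 0.14 (SE), adjusted p = 3.38e-05). Jarid2, a Polycomb accessory gene, had a change of 0.67 ± 0.11 (SE), adjusted p = 0.00253, which was -0.07 with ribosomal protein genes held at no change. On a list of 26 further genes of the Hox clusters, mostly noncoding, 3 are in the table. Besides Hoxb5os, these are 5730596B20Rik, annotated as coding within the Hoxa3 interval, and Hoxaas3. 5730596B20Rik had 43.4, 53.7 and 52.1 before grafting and 13.1, 16.5 and 5.94 in the grafts, a change of -2.08 ± 0.40 (SE), adjusted p = 0.00745, and Hoxaas3 had 15.8, 31.4 and 32.5 before grafting and 16.1, 3.88 and 8.90 in the grafts, a change of -1.49 (adjusted p = 0.129, and 0.0400 without graft replicate 1).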

How the data were processed

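Gene-level normalized counts (a signal: reads divided by 1 factor per library) were deposited by the authors for 6 libraries. Of the values checked, 100% were whole multiples of 1 step within 0.01 reads, and the largest values were not checked. The deposited gene lengths (unit: other) were used for levels per kilobase. The submitters' processing notes name builds mm8 and mm9, with Bowtie 0.12.2 and HISAT2 2.0.5. Of 12163 listed genes 12011 matched GENCODE M21 (GRCm38) within 1000 bp at both ends. How reads were counted, by strand or not, and which genes were kept is not stated in the labels. The test was limma (version 3.58.1, R 4.3.3; trend, robust, group only, 4 residual degrees of freedom) on log2(value + 1). It was two-sided and took genes at 10 or more in at least 3 libraries. Genes under 10 in all libraries of 1 group, such as Dbx2, Gsc, Zic1, Wt1, Crabp1 and Crabp2, passed only through the other group. The adjustment ran over 55450 annotated genes, with unlisted genes at the highest possible value. The planned count models were not run, because in 2 graft libraries the step is so near 1 that it could not be verified as a scaling of whole reads. Read numbers, floors and intervals given for low genes are values divided by that step and rest on it. Within each class the called genes with a mean of at least 20 in the higher group, up to 6 per direction, are given by library, and of the other lists up to 4 called per direction. Genes and lists were chosen with earlier results of these data known. The prior variance comes from a table selected on the outcome, a limit of every p. Other software was pandas 2.3.3, numpy 2.4.6 and scipy 1.17.1 under Python 3.11.15. The scripts were tested on simulated data. Same-numbered samples did not deviate together (correlations -0.157, -0.127 and 0.0407), which does not settle whether they are pairs. A few genes that enter the counts are not reported here one by one.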

Additional observations from a re-analysis of the deposited data

How the results depend on the processing

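Besides leaving out each library, the settings tried were pseudocounts, filters, scalings, adjustment and the replicate block. The 19 higher and 23 lower calls became 9 and 30 with ribosomal protein genes held at no change, and 28 were lower with equal upper quartiles; the cause was not tested; 9 of the 19 and 17 of the 23 kept their call in every alternative that tested them. Leaving out 1 library gave 15 to 21 higher and 18 to 21 lower calls and a median of -0.59 to -0.40. Calls were also lost over all tested genes. Their share called higher went from 41.3% to between 34.6% and 38.1%. Their share called lower went from 39.2% to between 30.6% and 37.0%. A call lost without 1 library is thus not particular to a homeobox gene. The median was -0.61 with equal listed totals, -0.60 with median ratios, -0.67 with equal upper quartiles and -1.22 with ribosomal protein genes held at no change. Those settings put 43.6%, 44.7%, 41.4% and 26.2% of all calls on the higher side, against 51.3%, and the last moved the median of all tested genes from 0.28 to -0.46. Under it, Meis3 (-0.26) and Jarid2 (-0.0739) turned negative. Dropping the filter on low values also moved the median of all genes, to -0.30, and the filter at 50 moved it to 0.35. With the replicate number as a block, 17 rose and 19 fell, and over all tested genes 36.0% rose and 33.6% fell. The labels do not say whether the numbers pair the samples. The planned edgeR and DESeq2 fits were not run. Reads in low genes such as Dbx2, Gsc and Barx2 limit what those values can show.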
